A study of Mus musculus with 18 samples.

Results

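The genes described here encode the regulatory proteins of the striated muscle thin filament that come in fast and slow forms. They are the troponins Tnnc1, Tnnc2, Tnni1, Tnni2, Tnnt1 and Tnnt3 and the tropomyosins Tpm1, Tpm2 and Tpm3. They were chosen by symbol, and every probe carrying 1 of the 9 symbols was taken. This gave 9 of the 19057 genes with a symbol on the array and 18 of its 45281 probes. Of the 18 probes, 17 passed the detection filter and were tested. The other, probe ILMN_1237801 of Tpm1, was detected on 0 of 18 arrays.

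Muscle contraction is switched on by calcium at the thin filament, a polymer of actin along which tropomyosin lies end to end. Each tropomyosin carries a troponin complex, in which troponin C binds calcium, troponin I holds the filament off at low calcium and troponin T ties the complex to tropomyosin. In skeletal muscle Tnnc2, Tnni2 and Tnnt3 encode the fast-fibre forms and Tnni1 and Tnnt1 the slow-fibre forms, while Tnnc1 serves slow fibres and the heart. Tpm3 makes the slow-fibre tropomyosin, Tpm2 the beta chain found in both fibre types, and Tpm1 the alpha chain of fast fibres and heart. The tropomyosin genes also make shorter products in the cytoskeleton of non-muscle cells, so tropomyosin RNA alone does not mark muscle, whereas the troponins of these families belong chiefly to striated muscle.

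RNA came from C57Bl/6 mice of the genotype Fapbl-Cre;Apc2lox14/+;tet-KrasLSL-G12D/+(FatK), 17 weeks old, and the cells are labelled as CDCP1-positive tumour cells of the colon taken with magnetic MicroBeads. All groups shared this genotype and were kept with doxycycline. Mouse labels FatK1, FatK5 and FatK7 each had an arm given shRNA against Foxd3 for 24 h, written shFoxd3 below, and an untreated arm, with 3 arrays per arm and 18 arrays in all. The untreated arm is labelled as having no shRNA, so no group carried a control hairpin. The labels name no cell type for the Cre driver and do not say whether the 3 arrays of an arm came from separate cultures. The p-values thus reflect only how far these arrays differ, perhaps in part for technical reasons. In untreated FatK1 and FatK5 the arrays were not all repeats of 1 sample, since their sex-linked transcripts, given below, differed.

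The stretches upstream of annotated transcript starts are shown for the fast and slow troponin C genes, the slow troponins I and T and both starts of Tpm3, because these are the genes whose arrays part company below. Each is the 250 bases before a RefSeq transcript start on GRCm38.p6, read 5′ to 3′ on the strand of the gene. For Tnni1 the first of 2 windows is shown, and both lie inside the gene span given below. Capitals mark the E-box CANNTG, the site of myogenic helix-loop-helix factors, and the MCAT motif CATTCC, the site of TEAD factors, on either strand.
Tnnc1, chr14:31208062-31208311, plus strand: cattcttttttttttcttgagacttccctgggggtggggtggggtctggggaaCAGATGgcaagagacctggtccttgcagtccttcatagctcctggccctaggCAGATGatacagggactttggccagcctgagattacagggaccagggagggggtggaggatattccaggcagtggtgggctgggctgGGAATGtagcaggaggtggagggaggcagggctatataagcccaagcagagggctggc
Tnnc2, chr2:164779735-164779984, minus strand: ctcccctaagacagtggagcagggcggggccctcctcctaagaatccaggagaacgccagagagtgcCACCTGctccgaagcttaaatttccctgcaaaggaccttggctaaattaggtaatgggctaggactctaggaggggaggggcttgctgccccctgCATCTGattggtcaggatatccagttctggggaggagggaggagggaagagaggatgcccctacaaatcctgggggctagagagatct
Tnni1, chr1:135799171-135799420, plus strand: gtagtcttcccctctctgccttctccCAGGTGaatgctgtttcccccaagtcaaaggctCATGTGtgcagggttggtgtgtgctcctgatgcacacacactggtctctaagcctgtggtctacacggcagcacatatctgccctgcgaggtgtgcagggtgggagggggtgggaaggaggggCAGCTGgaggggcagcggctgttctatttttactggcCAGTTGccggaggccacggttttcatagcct
Tnnt1, chr7:4515976-4516225, minus strand: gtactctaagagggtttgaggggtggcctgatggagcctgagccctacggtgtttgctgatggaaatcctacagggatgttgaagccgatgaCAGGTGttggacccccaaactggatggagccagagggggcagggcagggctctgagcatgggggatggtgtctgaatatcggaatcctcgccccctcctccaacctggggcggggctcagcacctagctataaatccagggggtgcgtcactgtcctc
Tpm3 first start, chr3:90072401-90072650, plus strand: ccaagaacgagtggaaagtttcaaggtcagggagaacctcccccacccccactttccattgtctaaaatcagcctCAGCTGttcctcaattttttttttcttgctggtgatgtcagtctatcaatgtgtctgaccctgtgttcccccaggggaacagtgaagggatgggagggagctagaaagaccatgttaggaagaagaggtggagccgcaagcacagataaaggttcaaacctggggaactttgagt
Tpm3 internal start, chr3:90079271-90079520, plus strand: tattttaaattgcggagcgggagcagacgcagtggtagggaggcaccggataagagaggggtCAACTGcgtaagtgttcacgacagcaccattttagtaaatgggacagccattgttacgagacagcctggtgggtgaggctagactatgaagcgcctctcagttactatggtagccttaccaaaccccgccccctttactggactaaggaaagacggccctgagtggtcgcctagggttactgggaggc

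RefSeq windows matched 7 of the 9 genes and numbered 9. An E-box lay in 9 of the 9 windows, a share to be read against the 66.2% of all 32851 windows that held one. The 2 Tnni1 windows overlap, and the E-boxes of the second are sites of the first as well, so these windows are not separate counts. The MCAT motif lay in 2 of 9, at -58 in Tnnc1 and at -56 in Tpm1, against 12.6% of all windows. MEF2 and CArG motifs, searched on both strands, were in 0 of 9 windows, against 2.9% and 1.5% of all windows. The motifs were counted separately, and these matches describe letters only. By position, Tnnc2 lies on chr2:164777161-164779734, Tnnc1 on chr14:31208312-31211729, Tnni1 on chr1:135783033-135810989 and Tnnt1 on chr7:4504569-4515975. Tnni2 (chr7:142441816-142444410) and Tnnt3 (chr7:142498771-142516213), fast troponins I and T, are 54.4 kb apart on 1 chromosome. The tropomyosins Tpm1 (chr9:67022590-67049672), Tpm2 (chr4:43513726-43523583) and Tpm3 (chr3:90072651-90100902) lie on separate chromosomes, and the Tpm3 starts shown are 6.87 kb apart.

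The arrays of a label were not alike in every respect, and the labelled tissue was borne out by only some of its markers. On the 4 arrays untreated 1 and 3 of FatK1 and FatK5, the Y-linked Eif2s3y gave 687 to 872 and Xist, the RNA of the inactive X, at most 13.6. On the other 8 arrays of FatK1 and FatK5 Xist gave 664 to 1470, and in FatK7 Eif2s3y gave 328 to 413 on every array. Thus in FatK1 and FatK5 the untreated arm mixed arrays of opposite pattern, while the shFoxd3 arm did not, and the comparisons that use them are given below also without the Eif2s3y arrays. The epithelial marker Epcam was undetected on all 18 arrays. The summed signal of 10 brown fat markers was 51290 to 82670 in FatK1, 21950 to 38530 in FatK5 and 94.9 to 452 in FatK7. In FatK5 the brown fat markers Ucp1 and Cidea were detected only on shFoxd3 array 2, at 23.6 and 31.6. In FatK1 they gave 4238 to 15220 and 7148 to 10530. Of the 10 markers, 5 were detected on all arrays of each FatK5 arm, and their tissue of origin was not tested. The 9 skeletal muscle markers summed to 158600 to 202000 in FatK5, 90 to 81210 in FatK1 and 24.9 to 71.3 in FatK7. The summed signal of 10 liver markers reached 94580 to 125100 in FatK7. The 10 markers of intestinal epithelium, Epcam among them, summed to 122 to 961 in FatK1 and FatK5 and to 7122 to 14960 in FatK7. Most of the FatK7 sum was Krt8, at 4576 to 9534, and Krt18, at 1746 to 4258. Epcam, Cdx1, Cdx2, Vil1, Krt19 and Krt20 were undetected on all untreated FatK7 arrays, and Epcam and Cdx2 on all shFoxd3 ones. Cdh1 was detected on all FatK7 arrays, at 141 to 586. Lgals4 was detected on all untreated FatK7 and FatK5 arrays and on all shFoxd3 FatK1 arrays. The mean signal of an array was 181 to 294, and 17289 to 19993 probes were detected per array.

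The fast troponins ran from undetected or nearly so in FatK7 to very bright in FatK5. Values here are deposited background-subtracted intensities of 1 array each, which can be compared within a probe and not between probes, since probes differ in brightness. Tnnc2, fast troponin C, gave 24246, 28015 and 29279 on the shFoxd3 arrays of FatK5 and 22648, 24430 and 22197 on its untreated arrays. In FatK1 it gave 15142, 14658 and 4491 with shFoxd3 and 25.9, 3133 and 282 untreated. In FatK7 it gave -8.45, 1.00 and -5.33 with shFoxd3 and -10.3, -7.40 and -4.67 untreated, all undetected. The FatK5 arrays were thus all above every FatK1 array, and the FatK1 arrays all above FatK7 and far more widely spread than those of FatK5.

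Tnni2, fast troponin I, followed the same order. It gave 22487, 26197 and 24279 with shFoxd3 and 20876, 23785 and 20287 untreated in FatK5. In FatK1 the shFoxd3 arrays gave 11852, 13580 and 4419 and the untreated arrays 4.96, which was undetected, 4183 and 276. In FatK7 it lay between 4.66 and 27.3 and was detected on 3 of 6 arrays. The first untreated FatK1 array lay within the FatK7 range, and the other FatK1 arrays lay between FatK7 and FatK5.

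Tnnt3, fast troponin T, gave 20726, 24899 and 23356 with shFoxd3 and 21944, 23285 and 18079 untreated in FatK5. Its FatK1 signals were 4331, 4533 and 1025 with shFoxd3 and 2.31, undetected, 1075 and 60.6 untreated. All FatK7 arrays were undetected, from -5.47 to 5.39. As with Tnni2, the FatK1 untreated arrays spread from background upward, and no FatK1 array reached the FatK5 range. On the FatK5 arrays the fast troponins gave 71.0 to 91.7% of the highest signal of their array, and whether they were saturated there was not tested.

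The slow troponins gave the same order of labels but a different place for single FatK1 arrays. Tnnc1, slow and cardiac troponin C, gave 2235, 2681 and 2029 with shFoxd3 and 933, 2206 and 2100 untreated in FatK5. In FatK1 it gave 1977, 1585 and 156 with shFoxd3 and 7.90, undetected, 1130 and 26.5 untreated. In FatK7 it was detected on all arrays at 36.0, 41.0 and 43.2 with shFoxd3 and 98.2, 63.7 and 67.3 untreated. The 3 brightest FatK1 arrays thus lay inside the FatK5 range, unlike Tnnc2, and the untreated arrays 1 and 3 of FatK1 lay below every FatK7 array.

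Tnnt1, slow troponin T, gave 2513, 2763 and 2655 with shFoxd3 and 1602, 1666 and 2968 untreated in FatK5. Its FatK1 signals were 1780, 1471 and 162 with shFoxd3 and 0.434, 869 and -2.27 untreated, the first and last of these undetected. In FatK7 it was detected on all arrays, between 48.3 and 118. The same FatK1 arrays were bright as for Tnnc1, with 1 of them, shFoxd3 array 1, inside the FatK5 range.

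Tnni1, slow troponin I, gave 172, 262 and 207 with shFoxd3 and 107, 216 and 191 untreated in FatK5. Its FatK1 signals were 184, 163 and 11.5, the last undetected, with shFoxd3 and -12.6, 82.8 and -9.93 untreated, of which only the second was detected. In FatK7 it was undetected on all 6 arrays, from -9.14 to 3.96. FatK1 arrays shFoxd3 1 and 2 were within the FatK5 range and untreated 2 just below it.

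Among the tropomyosins, Tpm2 behaved like the fast troponins. Its brightest probe gave 25494, 30624 and 28291 with shFoxd3 and 24367, 27631 and 24695 untreated in FatK5. In FatK1 the same probe gave 5853, 5374 and 1453 with shFoxd3 and 4.64, undetected, 2228 and 82.0 untreated. It was undetected on every FatK7 array, with a highest signal of 4.83. No FatK1 array came near the FatK5 range.

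Tpm3, by its brightest probe, gave 4603, 7019 and 5399 with shFoxd3 and 4708, 5152 and 5015 untreated in FatK5. Its FatK1 signals were 1865, 1972 and 209 with shFoxd3 and 41.4, 1597 and 41.4 untreated. In FatK7 it stayed between 17.1 and 69.9 and was detected on all 6 arrays. Untreated array 2 of FatK1 lay near shFoxd3 arrays 1 and 2, and untreated arrays 1 and 3 within the range of FatK7.

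Tpm1 was the exception. Its brightest probe gave 1475, 1208 and 1075 with shFoxd3 and 1208, 820 and 1074 untreated in FatK1. In FatK5 it gave 673, 1425 and 1666 with shFoxd3 and 1078, 984 and 935.6 untreated, and in FatK7 2261, 1346 and 986 with shFoxd3 and 1557, 1158 and 1344 untreated. Every array detected the probe, and no label stood apart from the others over its 6 arrays, although the deposited signals of untreated FatK5 and untreated FatK7 did not overlap.

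**Figure D1:**
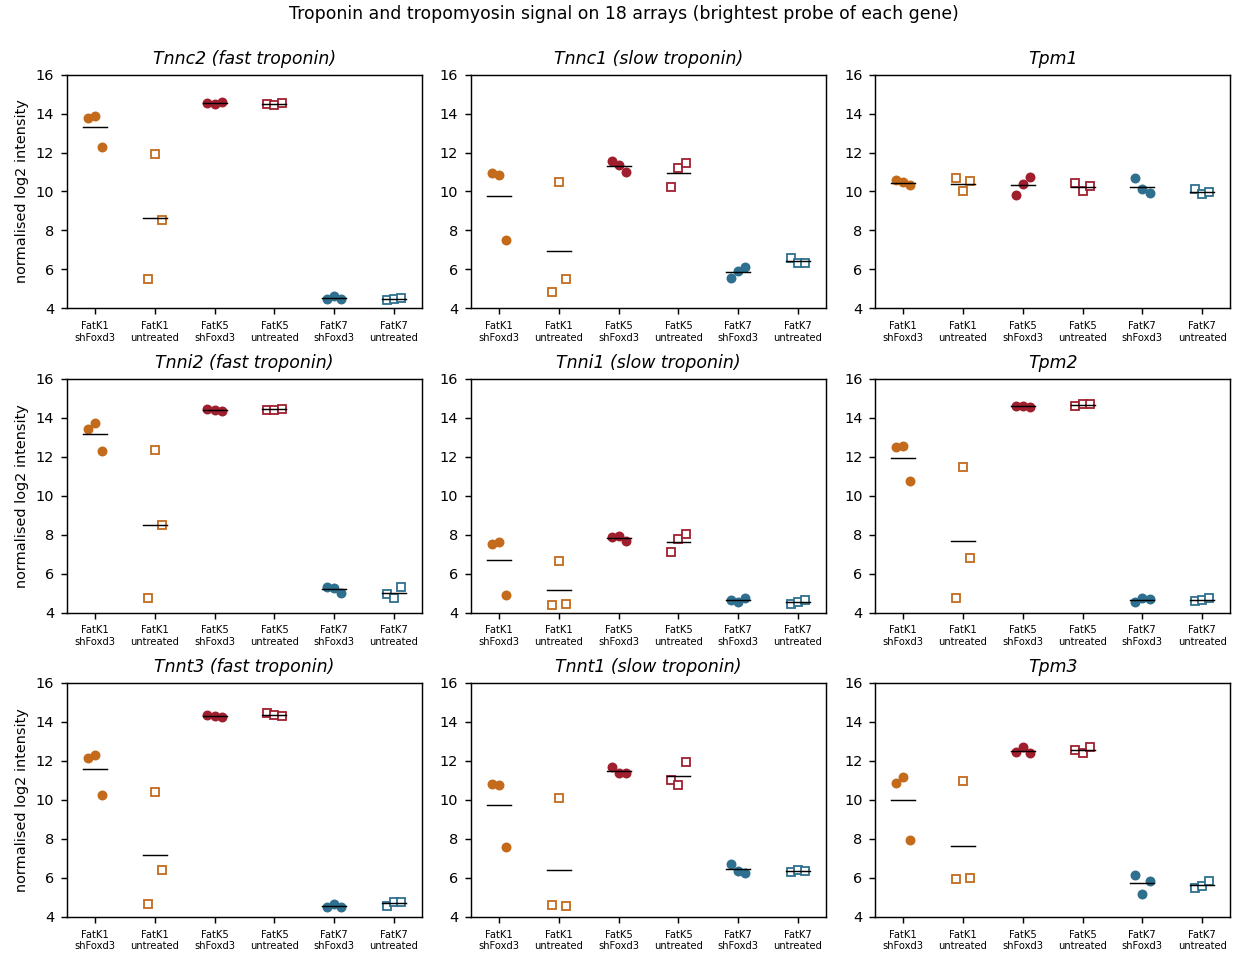
Normalised log2 intensity of the brightest probe of each gene on each of the 18 arrays, with shFoxd3 arrays filled, untreated arrays open and group means as bars, 3 arrays a group. For 8 genes the FatK5 means are the highest and the FatK1 arrays spread widely below them, while Tpm1 does not follow this order.

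Tests were run on normalised log2 values with limma over 24817 probes, and a gene was called at an adjusted p below 0.05 for its brightest probe. Between untreated FatK5 and untreated FatK7, 8 of the 9 genes were higher in FatK5, against 32.8% of all tested probes, and none was lower by that probe, against 30.8%. Untreated Tnnc2 was at least 714-fold higher in FatK5 (adjusted p = 1.24e-08), Tnnt3 at least 656-fold (adjusted p = 9.82e-09) and Tpm2 at least 812-fold (adjusted p = 3.65e-08). These are bounds because the FatK7 arrays did not detect the probes, and they set the FatK5 mean against the dimmest signal still detected on each FatK7 array. For Tnni1 the bound was 6.24-fold (adjusted p = 0.000119). Tnni2, detected on 1 of 3 untreated FatK7 arrays, was higher by 9.42 ± 1.05 on the log2 scale (moderated SE, adjusted p = 2.31e-07). Tpm3 was higher by 6.92 ± 0.94 (adjusted p = 2.88e-06), Tnnt1 by 4.91 ± 1.02 (adjusted p = 0.000343) and Tnnc1 by 4.53 ± 1.01 (adjusted p = 0.000699). Tpm1 differed by 0.26 ± 0.22 (adjusted p = 0.322). The arrays did not overlap for 8 of the 9 genes, against 68.1% of probes. With the Xist array alone for untreated FatK5, 8 genes were still higher, by 3.26 to 10.03. In bulk RNA such as this, fewer cells of a type and less RNA per cell cannot be told apart.

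Untreated FatK5 also stood above untreated FatK1 for 8 of 9 genes, against 18.8% of probes higher and 23.2% lower. The differences were 7.19 ± 0.86 for Tnnt3 (adjusted p = 1.27e-06), 7.00 ± 0.98 for Tpm2 (adjusted p = 8.77e-06), 5.90 ± 1.05 for Tnni2 (adjusted p = 0.000136) and 5.82 ± 0.91 for Tnnc2 (adjusted p = 3.07e-05). They were 4.91 for Tpm3 (adjusted p = 0.000271), 4.82 for Tnnt1 (adjusted p = 0.000701), 4.01 for Tnnc1 (adjusted p = 0.00331) and 2.49 for Tnni1 (adjusted p = 0.0017). Arrays of the groups did not overlap for 7 of the 9 genes, against 46.4% of probes; Tnnc1 and Tpm1 did. Restricted to the Xist arrays, which leaves 1 untreated array in each label, the fast troponins and Tpm2 were still called, by 2.09 (Tnni2, adjusted p = 0.00303) to 3.92 (Tnnt3, adjusted p = 0.000231), while the slow troponins and Tpm3 differed by 0.69 to 1.40 and were not called (adjusted p = 0.35 to 0.718). That comparison takes the lone array to vary like the other groups.

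Between untreated FatK1 and untreated FatK7, 4 of 9 genes were higher in FatK1, against 30.8% of probes higher and 25.1% lower. They were the fast troponins and Tpm2: Tnnc2 by at least 12.6-fold (adjusted p = 0.000637), Tpm2 by at least 6.33-fold (adjusted p = 0.0136), Tnnt3 by at least 4.48-fold (adjusted p = 0.0199) and Tnni2 by 3.52 ± 1.05 on the log2 scale (adjusted p = 0.00802). Tpm3 differed by 2.01 (adjusted p = 0.077), Tnni1 by 0.62 (adjusted p = 0.383), Tnnc1 by 0.53 (adjusted p = 0.685) and Tnnt1 by 0.08 (adjusted p = 0.953). On the normalised scale 2 of 9 genes, Tnnc2 and Tpm3, had arrays that did not overlap, against 64.7% of probes. Left without untreated FatK1 array 2, the only Xist array of its arm, Tnnt3 and Tpm2 lost their calls (adjusted p = 0.13 and 0.0529). In that setting Tnnt1 was called lower in FatK1, by -1.75 (adjusted p = 0.0233), and Tnnc1 differed by -1.24, uncalled. Tnnt3 also lost its call without untreated FatK7 array 1 (adjusted p = 0.0516). With that Xist array alone, untreated FatK1 is 1 array, so the calls of that setting are not read as a result.

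The spread inside FatK1 was the feature that set its arrays apart. The SD of log2 intensity over 3 arrays had a median over the 9 genes of 3.08 in untreated FatK1 and 1.15 in shFoxd3-treated FatK1, against 0.124 to 0.165 in the other 4 groups. In FatK7 the brightest probes of Tnnc2, Tnni1, Tnnt3 and Tpm2 were undetected, so their SDs there are those of background. Since the tests pool 1 spread over the 6 groups, they understate the spread in every comparison that uses untreated FatK1, Tpm1 apart. To place each FatK1 array, its log2 intensity was set against the mean of the 6 FatK5 arrays. On shFoxd3 array 1, Tnnc1 lay at -0.18, Tnni1 at -0.20 and Tnnt1 at -0.57. On the same array Tnnc2 lay at -0.74, Tnni2 at -0.99, Tnnt3 at -2.19 and Tpm2 at -2.12. On untreated array 2, Tnnc1 lay at -0.65, Tnni1 at -1.07 and Tnnt1 at -1.28, and Tnnc2 at -2.58, Tnni2 at -2.09, Tnnt3 at -3.91 and Tpm2 at -3.17. On both of these arrays the slow troponins were nearer to their FatK5 level than the fast troponins, as they also were on shFoxd3 array 2. Tpm3 did not share this order throughout. It lay at -1.67 on shFoxd3 array 1 and -1.36 on shFoxd3 array 2, below Tnnc2 and Tnni2 on both. On untreated array 2 it lay at -1.55, above them.

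On shFoxd3 array 3 the order turned for troponins C and I. Tnnc2 lay at -2.21 and Tnni2 at -2.12 there, whereas Tnnc1 lay at -3.61 and Tnni1, undetected, at -2.85. Tnnt3, at -4.08, stayed below Tnnt1, at -3.79, and Tpm3 lay at -4.58 and Tpm2 at -3.89. Set directly against untreated array 2, shFoxd3 array 3 had 1.43 times the Tnnc2 signal, 1.06 times that of Tnni2, 0.953 times that of Tnnt3 and 0.652 times that of Tpm2. The slow genes were far below on that array, at 0.138 times for Tnnc1, 0.187 times for Tnnt1 and 0.131 times for Tpm3, and Tnni1 was undetected on it. Both arrays carry the Xist pattern, and their summed skeletal muscle markers were 24040 and 18340. These are single arrays, so the contrast has no replicate check. Untreated arrays 1 and 3, the Eif2s3y arrays, were lowest for all 8 genes, from -3.30 for Tnni1 to -9.90 for Tpm2.

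**Figure D2:**
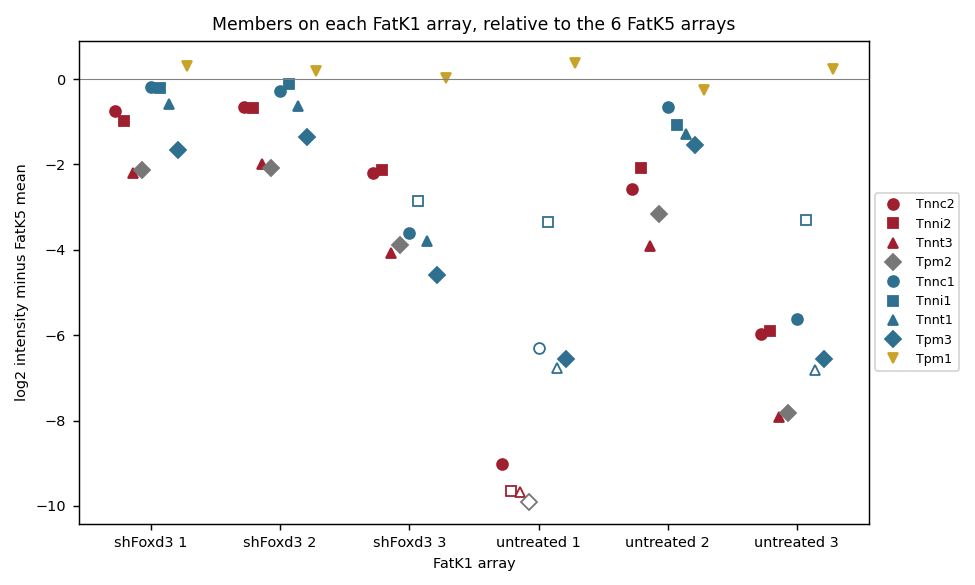
Normalised log2 intensity of each gene on each FatK1 array minus the mean of the 6 FatK5 arrays, with detected signals filled and undetected signals open, red for fast troponins, blue for slow troponins and Tpm3, grey for Tpm2 and yellow for Tpm1. On shFoxd3 arrays 1 and 2 and untreated array 2 the blue troponin symbols lie above the red ones, and on shFoxd3 array 3 Tnnc2 and Tnni2 lie above them.

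With shFoxd3 in FatK1, 4 of 9 genes were higher than in the untreated arm, against 0.58% of probes, and they were the fast troponins and Tpm2. Tnnc2 was higher by 4.65 ± 0.91 (adjusted p = 0.0171), Tnnt3 by 4.40 ± 0.86 (adjusted p = 0.0178), Tnni2 by 4.62 ± 1.05 (adjusted p = 0.047) and Tpm2 by 4.27 ± 0.98 (adjusted p = 0.0498). The slow troponins were not called: Tnnt1 differed by 3.29 ± 1.02 (adjusted p = 0.19), Tnnc1 by 2.83 ± 1.01 (adjusted p = 0.31) and Tnni1 by 1.52 ± 0.58 (adjusted p = 0.351). Tpm3 differed by 2.36 ± 0.94 (adjusted p = 0.379) and Tpm1 by 0.05 ± 0.22 (adjusted p = 0.982). Whether the fast change exceeded the slow change was not tested. The median over the 9 genes was 3.29, beside -0.02 over all tested probes. Only Tnnc2, 1 of 9 genes, had arms that did not overlap, against 14.1% of probes. Because 1 spread was pooled over the 6 groups, these SEs and p-values understate the spread inside FatK1, Tpm1 apart. For Tnnc2 the SD was 0.874 with shFoxd3 and 3.22 untreated in FatK1, against at most 0.103 in any group of the other labels. In FatK7 that probe was undetected, so its SD there is that of background.

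These calls rest on single arrays. Without shFoxd3 array 1, shFoxd3 array 2 or untreated array 3 of FatK1, 0 of 9 genes were called, and the adjusted p of Tnnc2 was then 0.111, 0.111 and 0.0824. Without untreated array 1, Tnnc2 and Tnnt3 were called, without shFoxd3 array 3 there were 6 genes, and without untreated array 2 there were 8. Without any 1 array of FatK5 or FatK7 the count was 2 or 3, since Tnni2 and Tpm2 sat close to the threshold. Set against the Xist array alone, the shFoxd3 arm differed by 1.38 ± 0.40 for Tnnc2 (adjusted p = 0.071), 1.15 for Tnnt3 (adjusted p = 0.263), 0.82 for Tnni2 (adjusted p = 0.274) and 0.47 for Tpm2 (adjusted p = 0.699). In that comparison 0 of 9 genes were called, and Tnnc1 (-0.71), Tnnt1 (-0.38) and Tpm3 (-0.99) took the opposite sign, with adjusted p = 0.61 to 0.89. The summed skeletal muscle markers moved with the genes: 81210, 75320 and 24040 on the shFoxd3 arrays and 90, 18340 and 1571 on the untreated arrays of FatK1. Their part in the result was not tested.

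In FatK5, where the genes were bright in both arms, 0 of 9 were called between arms, against 0.25% of probes, with changes of -0.08 to 0.36 and adjusted p of 0.96 to 0.998. Against the Xist array of untreated FatK5 alone, 0 of 9 were called, with changes of -0.09 to 0.72 (adjusted p = 0.685 to 0.996). There 0 of 9 genes had arms that did not overlap, against 12.2% of probes. In FatK7 0 of 9 were called, against 0.83% of probes, with changes of -0.56 to 0.24. Tnnc1 had the lowest value, -0.56 ± 1.01, and was the 1 of 9 genes whose FatK7 arms did not overlap, against 17.8% of probes. At an unadjusted p below 0.05, 2671 probes passed in FatK5 and 2333 in FatK7, and 0 of the 9 genes were among either. Except for Tpm1, the pooled spread came mostly from FatK1, so small changes in FatK5 or FatK7 could hardly pass. For Tnnc2 in FatK5 the SE was 0.906, beside SDs of 0.0642 with shFoxd3 and 0.0444 untreated. The counts of 0 thus do not show that the genes were unchanged. The Foxd3 probe itself was detected on 1 of 18 arrays, so the arrays do not show whether the hairpin lowered its target.

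Across the mouse labels, with the label as a block over 6 profiles, 0 of 9 genes were called, against 0.105% of probes. The changes ran from 0.12 to 1.60 (adjusted p = 0.79 to 0.809) and were largest for Tnni2, at 1.60 ± 0.83, and Tnnc2, at 1.59 ± 0.84. At an unadjusted p below 0.05, 1423 probes passed across labels, and 0 of the 9 genes. On the Xist arrays 0 of 9 were called across labels, with changes of -0.38 to 0.51 (adjusted p = 0.729 to 0.958), and Tnnc1 (-0.38) and Tpm3 (-0.26) took the opposite sign. The interaction of treatment and label called 0 of 9 genes, against 0.218% of probes, the lowest adjusted p being 0.164 for Tnnt3. At an unadjusted p below 0.05, 2582 probes passed the interaction test, with Tnnc2, Tnni2, Tnnt3 and Tpm2 among them. On the Xist arrays the interaction called 0 of 9 genes, with a lowest adjusted p of 0.212 for Tnnc2. So the response of FatK1 was not shown to differ from that of the other labels. Without untreated FatK1 array 2, 7 genes passed the interaction test and 0 passed without any other single array.

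**Figure D3:**
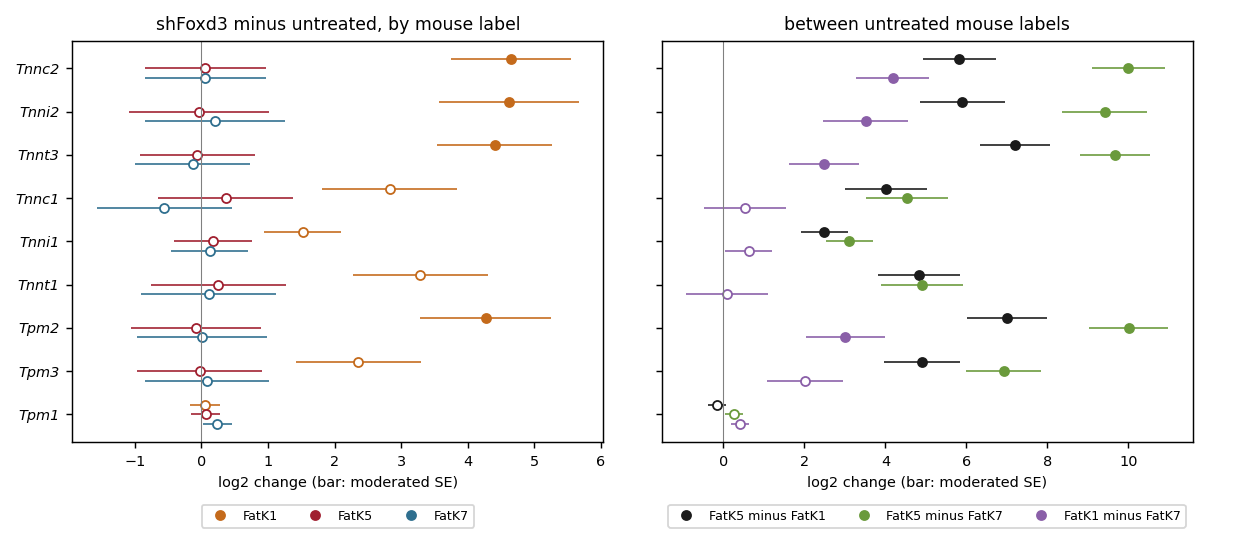
Log2 change of each gene's brightest probe with its moderated SE, shFoxd3 minus untreated within each mouse label on the left and between untreated labels on the right, filled where the adjusted p was below 0.05. Only FatK1 has filled symbols on the left, for Tnnc2, Tnni2, Tnnt3 and Tpm2, and Tpm1 lies near 0 in both panels.

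The tropomyosin genes had several probes each, and within Tpm1 and Tpm3 the probes did not move together. Probe ILMN_2444316 of Tpm3 gave 430 to 481 with shFoxd3 and 394 to 488 untreated in FatK1, 220 to 485 and 263 to 366 in FatK5 and 513 to 855 and 592 to 736 in FatK7. As deposited signals its FatK7 arrays lay above all others, whereas the other Tpm3 probes were far dimmer in FatK7 than in FatK5. After normalisation untreated FatK1 and FatK7 differed by 0.02 for this probe (adjusted p = 0.926). Between untreated arms it was lower in FatK5 than in FatK1 by -0.54 ± 0.15 (adjusted p = 0.00682) and than in FatK7 by -0.53 ± 0.15 (adjusted p = 0.00556). Those calls ended with the deposited series matrix values (adjusted p = 0.31 and 0.808) and on the Xist arrays (adjusted p = 0.0824 and 0.0628). Probe ILMN_2443164, by contrast, gave 1371 to 3124 in FatK5 and 8.50 to 27.6 in FatK7. In FatK1 that probe gave 1268, 1310 and 115 with shFoxd3 and 10.6, 1276 and 15.2 untreated, so that untreated array 2 equalled the bright shFoxd3 arrays. RefSeq gives Tpm3 both starts shown above, and which product each probe reads was not determined here.

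The second tested Tpm1 probe, ILMN_2518346, was lower in untreated FatK5 than in FatK7 by -0.86 (adjusted p = 0.00148) and lower in untreated FatK1 than in FatK7 by -1.01 (adjusted p = 0.00042). Its untreated signals were 545, 440 and 467 in FatK7, 176, 219 and 161 in FatK5 and 201, 121 and 152 in FatK1. The FatK7 arrays lay above all others for this probe, whereas the untreated arms overlapped for the brighter Tpm1 probe after normalisation. All 3 Tpm2 probes followed the muscle order, but ILMN_2487170 kept a signal of 40.0 to 76.6 in FatK7. With shFoxd3 in FatK1 that probe rose by 1.87 ± 0.40 (adjusted p = 0.0306), and ILMN_2787172 gave 2.17 ± 0.50 (adjusted p = 0.0547). Counted over all 17 tested probes, 5 were higher with shFoxd3 in FatK1, against 0.58% of all probes tested. Between untreated arms 14 probes were higher and 1 lower in FatK5 than in FatK1, 14 higher and 2 lower in FatK5 than in FatK7, and 5 higher and 1 lower in FatK1 than in FatK7. The lower ones were ILMN_2444316 and ILMN_2518346. In that order, the shares of all probes tested were 18.8% higher and 23.2% lower, 32.8% and 30.8%, and 30.8% and 25.1%.

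**Figure D4:**
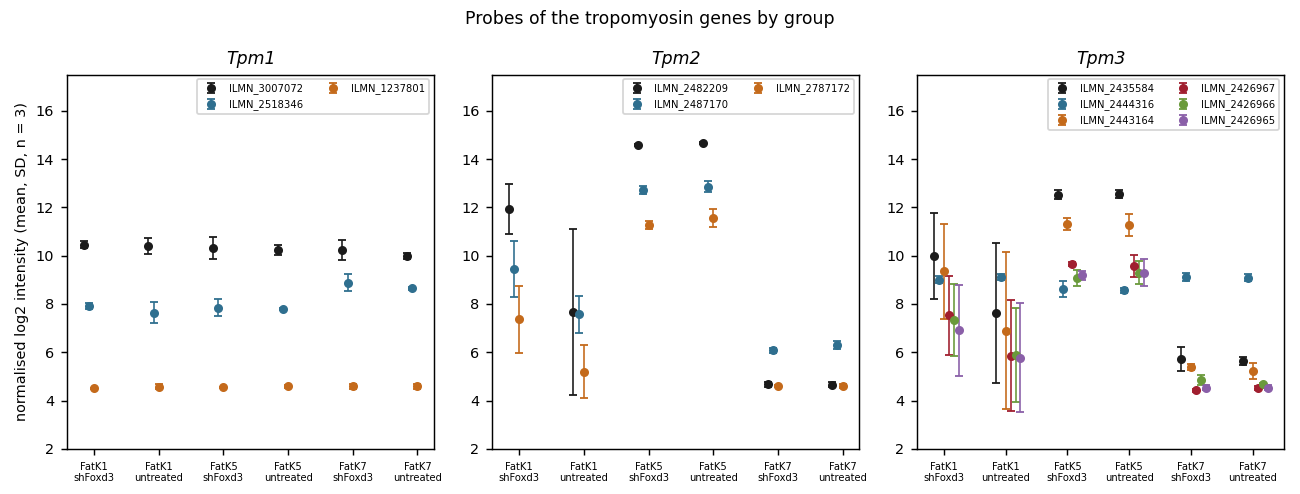
Normalised log2 intensity of every probe of the 3 tropomyosin genes by group, mean and SD of 3 arrays. All Tpm2 probes and all Tpm3 probes but ILMN_2444316 are highest in FatK5, whereas the Tpm1 probes and ILMN_2444316 do not follow that order.

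Other genes of the contractile apparatus were read from lists. Of 9 tested fast-fibre genes, 8 were higher with shFoxd3 in FatK1, among them Myh4, a fast myosin heavy chain, by 4.51 (adjusted p = 0.00279), and Mylpf, the fast regulatory light chain, by 4.80 (adjusted p = 0.00488). The other, Atp2a1, the fast-fibre calcium pump, gave 4.58 (adjusted p = 0.0507). Of 10 tested slow-fibre genes 1 was higher, Mybpc1, a myosin-binding protein of slow fibres, by 3.32 (adjusted p = 0.0403). Myh7, the slow and cardiac heavy chain, differed by 0.81 (adjusted p = 0.583), Myl2 by 4.19 (adjusted p = 0.133) and Myl3 by 3.69 (adjusted p = 0.132), the last pair being slow light chains. The median change was 4.18 for the fast list and 1.76 for the slow list, beside -0.02 over all tested probes. Against the Xist array alone, where 548 of the 24817 probes were higher, 7 of 9 fast-fibre genes and 0 of 10 slow-fibre genes were higher, with medians of 2.03 and -0.08. The lists share genes with the muscle marker list, so their counts are not separate evidence.

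The slow light chains repeated the array pattern of the slow troponins. Myl2 gave 4564, 4094 and 397 with shFoxd3 and 4.59, 2047 and 1.55 untreated in FatK1, and Myl3 gave 2406, 2148 and 166 with shFoxd3 and 1.95, 762 and -3.17 untreated. Both were thus several-fold higher on untreated array 2 than on shFoxd3 array 3. Acta1, skeletal actin, gave 24040, 23690 and 7955 with shFoxd3 and 11.9, 7828 and 516 untreated, level between those arrays as Tnni2 was.

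Of 16 tested partners of the thin filament, 4 were higher with shFoxd3 in FatK1, namely Actc1, Tmod4, Actn3 and Xirp2, and 15 were higher in untreated FatK5 than in either other label. Of 9 tested skeletal muscle markers, 6 were higher with shFoxd3 in FatK1, or 3 against the Xist array alone, and 9 were higher in untreated FatK5 than in each other label. Smooth muscle and non-muscle actin lists had 0 of 10 and 0 of 9 genes called with shFoxd3 in FatK1. Acta2, smooth muscle actin, differed by 0.52 (adjusted p = 0.694), Actb, a cytoplasmic actin, by 0.18 and Myh9, a non-muscle myosin, by -0.30 there. Smooth muscle genes were higher in untreated FatK5 than in FatK1 for 8 of 10. The share of all tested probes called higher was 18.8% there, 32.8% for untreated FatK5 against FatK7 and 0.58% with shFoxd3 in FatK1. In FatK5, FatK7 and across labels 0 genes of any list were called between arms.

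Cardiac markers were looked at because Tnnc1 also serves the heart. Nppa, Nppb, Tnni3, Myl7, Ryr2 and Mybpc3 were undetected on all arrays of FatK1 and FatK5, 6 of the 9 cardiac markers on the array. The summed cardiac signal of 2465 to 28480 in FatK5 was mostly Actc1, an actin also made in skeletal muscle, which alone gave 1714 to 27770. The other cardiac markers tested, Myh6 and Myl4, were detected on every FatK5 array, at 279 to 403 and 171 to 505. All 3 tested markers were higher in untreated FatK5 than in each other label. Against FatK7 the difference was 3.88 for Myh6 (adjusted p = 6.74e-07) and 2.72 for Myl4 (adjusted p = 9.19e-09). Of the other genes of the troponin and tropomyosin families, Tpm4, a cytoskeletal tropomyosin, differed by 0.02 with shFoxd3 in FatK1 (adjusted p = 0.995) and was higher in untreated FatK5 than in FatK7 by 1.22 (adjusted p = 0.000369).

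Across the 18 arrays, after the mean of each mouse label was taken off, all genes but Tpm1 varied together. Pearson's r was 0.978 to 0.994 between the fast troponins and 0.94 to 0.967 between the slow troponins, beside 0.781 to 0.936 between a fast and a slow troponin. Tpm2 correlated at 0.985 to 0.994 with the fast troponins and 0.845 to 0.94 with the slow, and Tpm3 at 0.937 to 0.978 with the slow troponins and 0.856 to 0.904 with the fast. Tpm1 had r of -0.302 to -0.13 with the others. As the SDs above show, the FatK1 arrays varied most, so these values describe chiefly those 6 arrays and carry no test.

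Among 12468 genes with a named symbol, those most like each member by this measure were mostly other genes of skeletal muscle, Tpm1 apart. Tnnc2 was nearest to Mylpf (0.995), Atp2a1 (0.994) and Ckm, muscle creatine kinase (0.993). Tnni2 was nearest to Acta1 (0.996), Atp2a1 (0.996) and Mylpf (0.984), and Tnnt3 to Ckm (0.997), Ttn (0.993) and Myoz1 (0.987). Tpm2 was nearest to Ttn, the giant sarcomere spring (0.993), Atp2a1 (0.99) and Ckm (0.99). The slow members had other neighbours. Tnnt1 was nearest to Myl3 (0.994), Myl2 (0.991) and Tcap, the titin cap protein (0.977), Tnnc1 to Myl2 (0.97), Myoz2, a Z-disc protein of slow fibres and heart (0.97) and Myl3 (0.969), and Tpm3 to Myl3 (0.973), Myoz2 (0.971) and Tcap (0.97). Tnni1 was nearest to Clip4 (0.967), Mylk2 (0.959) and Myoz2 (0.957). Tpm1 was nearest to Relb (0.901), Olfr1030 (0.895) and Mcam (0.874), none of which is a sarcomere gene.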

How the data were processed

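RNA of 18 samples was measured on Illumina mouse bead arrays. The deposited non-normalised table gives a signal intensity per probe and array, made by the authors with the background already subtracted, so that 23.2 to 30.9% of signals of an array lie below 0, and a detection p-value. The deposited series matrix holds a further linear intensity, each the non-normalised signal times 0.733 to 1.53, with scale and centring unstated. It served as an alternative. Scanner software was not given in the sources used here.

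The neqc function of limma 3.58.1, under R 4.3.3 with statmod 1.5.0, corrected the background by way of the detection p-values, quantile normalised the arrays and took log2 after an offset of 16. A probe was kept if at least 3 arrays detected it at p below 0.05, which held for 24817. Groups and comparisons were fitted with lmFit and eBayes with a trend, two-sided, with Benjamini-Hochberg adjustment over all kept probes, 1 spread being pooled over the 6 groups. The fit was tested on simulated data in which all groups shared the same spread. That test does not cover the wider spread of FatK1. Symbols came from the platform annotation, under which 34885 probes had 1 symbol, 18 several and 10378 none. The brightest kept probe stood for its gene. All member probes are named, with the first 3 genes of each list (other list genes where a result turned on them, chosen after their values were seen) and the 3 genes most like each member. The members and lists were chosen with earlier results of these data known. The number of arrays limits the precision. Plots came from matplotlib 3.10.9 under Python 3.11.15.

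The array numbers 1 to 3 were not taken as pairs in the main tests. The deviations of same-numbered arrays correlated by -0.0153 to 0.26, yet 7 of 9 arrays correlated best with their own number. Alternatives were other normalisations, another offset, no filter, the mean of a gene's probes, the series matrix, a block for array number and leaving out arrays.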

Additional observations from a re-analysis of the deposited data

How the results depend on the processing

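Between untreated labels, 8 genes were called for FatK5 against FatK1 and 8 for FatK5 against FatK7 under every normalisation, offset and filter tried and without any single array. The exception was the comparison on the Xist arrays, added after the data were seen, with 4 genes for FatK5 against FatK1 and 8 for FatK1 against FatK7. For FatK1 against FatK7 the count was 3 to 5 in the other settings. Within FatK1, the count with shFoxd3 was 2 with quantile normalisation without normexp, 8 with arrays 2 of untreated FatK1 and FatK5 left out, 0 on the Xist arrays, and 0 to 8 with single arrays left out. The interaction gave 2 genes with the series matrix values, 7 with arrays 2 left out and 0 to 7 with single arrays left out. Of the values of single called genes, 594 kept their side of the threshold, 54 lost it with the same sign, and 0 changed sign.

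Of 9 arrays, 7 correlated best with their own number. Yet in FatK1 and FatK5 arrays 1 and 3 carried Xist with shFoxd3 and Eif2s3y untreated. These same-numbered arrays thus differed in sex-linked pattern. A block for array number gave 5 genes within FatK1, 0 across labels and 0 in the interaction. It gave 8 for FatK5 against FatK1, 8 against FatK7 and 4 for FatK1 against FatK7. Over all probes it took the FatK1 calls from 183 to 298 and the interaction calls from 54 to 145. Median scaling moved the median of all probes by 0.115, 0.343 and 0.237 in the 3 comparisons of untreated labels, and for FatK5 against FatK7 the probes called higher went from 8149 of 15786 to 11079 of 17206. Under it the brighter Tpm1 probe took the opposite sign, at -0.12 for FatK5 against FatK7 and -0.11 for FatK1 against FatK7, uncalled. The causes were not tested. Signals near background limit the slow troponins, Tnni1 above all, which was undetected on 3 of 6 FatK1 arrays.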
